A study of Mus musculus and Homo sapiens with 22 samples.

Results

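N6-methyladenosine (m6A) sites in mouse heart were taken from a single miCLIP2 library made from 1 µg of poly(A)+ RNA. The list holds 46421 sites, of 118638 entries in the 6 site lists of the series, and all of its sites were used. The RNA was bought from a supplier as heart RNA that had already been selected for poly(A) tails. Strain, age, sex and the number of animals behind it are not given in the labels, and nothing says that the tissue was treated. There is 1 library and no replicate, so every value below is a description, intervals cover counting error only, and no difference was tested. A site was given to a gene when it lay in an exon of that gene on the same strand, and 44054 sites (94.9%) fell in the exons of exactly 1 gene. These sites lay in 8512 genes, of which 8211 were protein-coding.

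m6A is placed on nascent mRNA by a methyltransferase complex built around METTL3 and METTL14, mainly at an A within the motif DRACH (D is A, G or T, R is A or G, H is A, C or T). Proteins with a YTH domain bind the mark, and it is best known for shortening the life of an mRNA. In miCLIP2, an antibody against m6A is crosslinked to the RNA by UV light, and the modified base is read from the position at which reverse transcription stops. The authors then used a classifier, m6Aboost, to separate m6A from background. Its inputs include the bases around a site and the part of the transcript in which it lies, so shares by motif and by transcript region are partly built into the list. The distance to a splice junction is not an input. The strength of a peak relative to the other peaks of its gene is one, so a call depends on what else was seen in that gene. A transcript must also be abundant enough to be seen, and RNA levels in the heart were not measured in the values used here, so a gene without a listed site is not shown to lack m6A.

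The fifth column of the list orders the sites and was used for nothing else. Its scale is not stated, and 61 sites share its highest value, so they could not be ranked among themselves. The sequences of 12 of these sites are shown first because they lie in transcripts that carry out the heart's contraction, calcium cycling and fuel use. Each line gives 21 nt of GRCm38, read 5′ to 3′ on the strand of the transcript. The 5 nt centred on the A predicted to be m6A are in capitals.

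Ttn, titin, last exon, coding, chr2:76705096-76705116, minus strand: aagatggcGGACTttataccc

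Ttn, exon 341, coding, chr2:76709960-76709980, minus strand: gagattctGGACTgccagact

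Tcap, telethonin, 3′ UTR, chr11:98384541-98384561, plus strand: gctgagatGGACTgtgtgact

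Tcap, 3′ UTR, chr11:98384832-98384852, plus strand: gaacagatGGACTaggagaag

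Myom1, myomesin of the M-band, 3′ UTR, chr17:71126366-71126386, plus strand: gtgagcagAGACTgggggagt

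Ankrd1, stress-responsive ankyrin repeat protein, 3′ UTR, chr19:36112688-36112708, minus strand: gagaaaagAGACTcaacagga

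Dsp, desmoplakin of the desmosome, last exon, coding, chr13:38196011-38196031, plus strand: ctgtaaacGAACTggaatccg

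Pln, phospholamban, 5′ UTR, chr10:53343822-53343842, plus strand: acttagaaAAACTtgtctccc

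Pln, 3′ UTR, chr10:53344188-53344208, plus strand: ttgtaaacAAACTttacagtg

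Atp2a2, calcium pump of the sarcoplasmic reticulum, exon 8, coding, chr5:122469468-122469488, minus strand: agctcttgGAACTcgtaggat

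Hrc, calcium-binding protein of the sarcoplasmic reticulum, exon 1, coding, chr7:45335973-45335993, plus strand: gtgatggaGGACTctgatgat

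Pdk4, kinase that inhibits pyruvate dehydrogenase, 3′ UTR, chr6:5485285-5485305, minus strand: ctgatgagGGACAgagcttgg

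Of the 61 sites at the highest value, 58 lay in DRACH and 26 of them read GGACT. The exons of 1 gene held 52, spread over 32 genes, and 12 genes held at least 2. Titin, the spring that spans the sarcomere from Z-disc to M-band, held 7. Malat1 held 4, not counting a site that it shares with another gene. Pln, Tcap, Ankrd1, Dsp, Hrc, Fsd2, Tuba4a, Eef2 and the noncoding RNA Neat1 held 2 each. Sarcomere and junction genes with 1 site at that value were Myom1, Myoz2 (a calcineurin-binding Z-disc protein) and Popdc2 (a cAMP-binding membrane protein). Genes of energy supply with 1 site were Acsl1, Pdk4, Atp5b, Slc25a4, Uqcrfs1, Cox6a2, Pgam2, Pygb, Got1 and Mfn2, which encodes a mitofusin. Tns1, Dynll2, Ahnak, Ehd4, Sparcl1, Atp2a2 and the mitochondrial ribosomal RNA gene mt-Rnr2 held 1 each as well. Some of these sites lay next to the stop codon. The distances from its last base were 6 nt in Tcap, 7 nt in Myom1, 9 nt in Ankrd1 and 9 nt in Uqcrfs1, all in the 3′ UTR.

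The check of the labelled tissue rested on lists of marker genes. Thick filament genes, the motor proteins and their anchors, had a site in 15 of 19 members and thin filament genes in 11 of 18. Of all 21951 protein-coding genes, 37.4% had at least 1 site. Genes restricted to skeletal muscle had a site in 1 of 20, the single site being in Cacna1s at rank 44348. Liver genes had sites in 2 of 19 (Hp with 4 and Cyp2e1 with 1) and brain genes in 3 of 18 (Camk2a with 4, Mbp and Slc17a7 with 1 each). With the upper 50% of the ranking, the shares with a site were 0% for skeletal muscle, 5.26% for liver and 11.1% for brain genes. Thick filament genes then stood at 68.4%, thin filament genes at 55.6% and all protein-coding genes at 26.9%. Albumin, Myh4 and Snap25, which define liver, fast skeletal muscle and neurons, had no site. Their longest exons measure 224, 390 and 1354 nt. The median longest exon was 390 nt in skeletal muscle, 662 nt in liver and 1578 nt in brain genes. It was 397 nt in thick and 1085 nt in thin filament genes. Of all protein-coding genes with a longest exon under 400 nt, 15.2% had a site. The part of exon length in these shares was not tested.

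Genes listed for other cells of the heart held sites as well. Endothelial genes had a site in 24 of 25 members, led by Cdh5 (the cadherin of endothelial junctions) with 20, Npr3 with 19 and Mmrn2 with 18. Npr3 is also on the list of natriuretic peptides and stress-responsive genes, so its sites count in both. Fibroblast and matrix genes had a site in 28 of 31, led by Col6a3 with 19, Pdgfra with 16 and Fbln2 with 13. Smooth muscle and pericyte genes had a site in 15 of 17, led by Cspg4 (the NG2 proteoglycan of pericytes) with 34, Pdgfrb with 14 and Kcnj8 with 12. Immune cell genes had a site in 13 of 24 and 36 sites in all, led by the complement gene C1qb with 7. Their share was 54.2% (interval 35.1 to 72.1%), so that the 37.4% of all protein-coding genes lay within the interval. Adgre1, Cd68, Cx3cr1, Itgam and Lyz2 were among the members without a site. In the upper 50% of the ranking the immune share was 33.3%, and that of all protein-coding genes 26.9%. In RNA from a whole tissue, fewer cells of a type and less RNA per cell cannot be told apart.

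**Figure D1:**
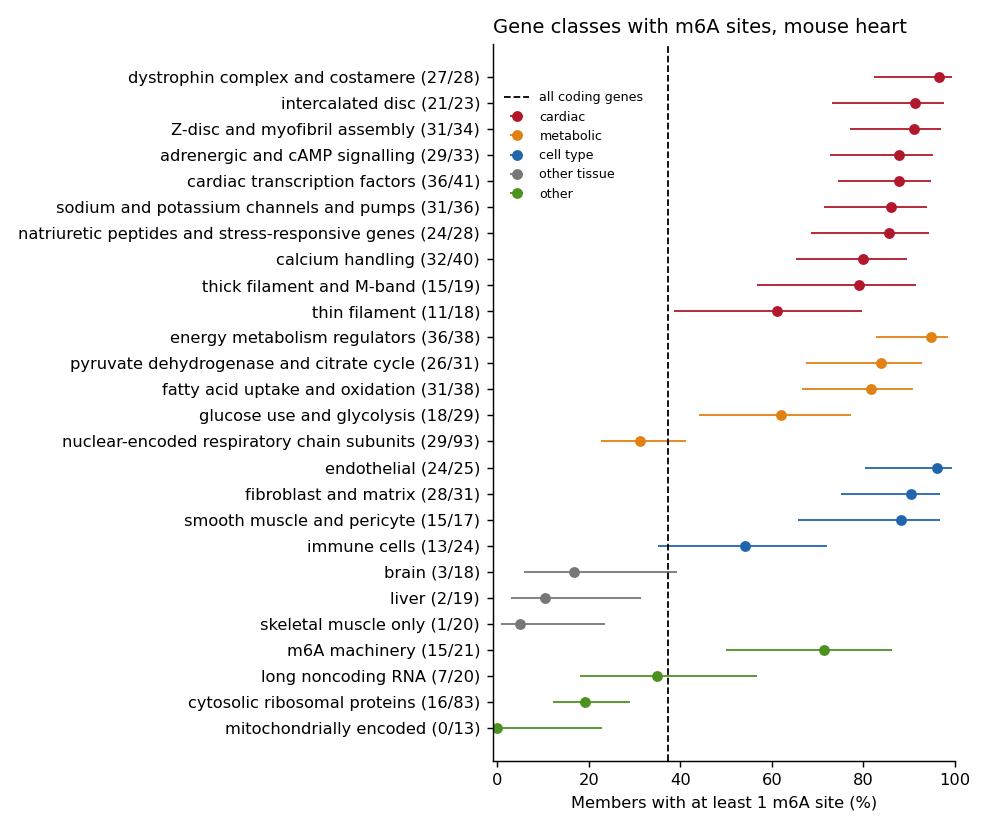
Share of the members of each gene class with at least 1 m6A site (x axis, %), with Wilson 95% intervals and the counts beside each name. The dashed line marks the 37.4% of all protein-coding genes. The 10 cardiac classes (red) lie between 61.1% and 96.4%, and the 3 lists for other tissues (grey) between 5.00% and 16.7%.

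Across the 10 cardiac classes, 257 of 300 genes (85.7%, Wilson interval 81.2 to 89.2%) had at least 1 site, beside 37.4% of all protein-coding genes. Members with a site had a median of 6 sites, and protein-coding genes with a site a median of 4. The cardiac genes were also longer. The median exon length, taken as the union of all exons of a gene, was 5476 nt in cardiac members with a site and 4960 nt in all protein-coding genes with a site. Summed over members with and without sites, cardiac genes had 1.02 sites per kb of exon, compared with 0.442 per kb over all protein-coding genes and 0.884 per kb over those with a site.

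Classes differed in whether their sites were spread or concentrated. The list of cardiac transcription factors held the most sites of the 10 cardiac classes, 319 over 41 genes, with a median of 8 and none above 23. Foxo3, a stress-responsive forkhead factor, had 23 and Heyl (a Notch target) 20. Rbm20, the splicing regulator of titin, also had 20 and is on the list although it is not a transcription factor. Without the sites of Rbm20 the list would stand below the thick filament genes. Gata5, Hand1, Isl1 and Tead4 were among the members without a site. Thick filament genes followed with 302 sites, but Ttn alone held 195 of them (64.6%), and the median of the class was 2. Without Ttn its density fell from 1.24 to 0.838 sites per kb.

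Ttn had the most sites of any gene in the heart list. Its 195 sites lay on chromosome 2 (76703980 to 76982547, minus strand), at 1.67 sites per kb of a union exon length of 116825 nt. In its longest coding transcript, which has 347 exons, 188 sites could be placed, 187 of them coding and 1 in the 3′ UTR. They occupied only 33 exons. Exon 309, which is 17106 nt long, held 67 sites, exon 341 (5437 nt) held 27 and exon 287 (2967 nt) held 18. The 21 exons longer than 400 nt made up 39.4% of the transcript and held 91.5% of its sites. The density was 4.09 sites per kb in these exons and 0.247 per kb in the other exons. This transcript is an annotated one, and which of its exons the heart RNA holds was not measured. An exon without a site may therefore be absent from the RNA, and the part of splicing in these shares was not tested.

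The other thick filament genes differed in exon structure as well as in sites. Speg, a kinase related to titin, had 33 sites. Myh6, the main myosin motor of the adult mouse ventricle, has 39 exons of at most 390 nt and held 1 site, which ranked 312th in the whole list. Mybpc3 (myosin-binding protein C) also held 1 and the light chain Myl3 held 2, with best ranks of 2043 and 430. Myh7, Myom3, Myl2 and Myl7 had no site, although Myh7 has 8616 nt of exon and 160 DRACH motifs. The longest exon of Myh7 is 390 nt, that of Myl2 306 nt and that of Myl7 145 nt. The longest exon of Myom3 is 1409 nt. RNA levels were not measured, and the part of exon length in the lack of a site was not tested.

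Thin filament genes had the lowest share with a site of the cardiac classes and the lowest density, 56 sites at 0.560 per kb. The sites lay mainly in assembly factors of actin filaments. Fhod3, a formin, had 19, Tmod1, which caps the pointed end, had 10, Lmod3 had 8 and Lmod2 had 7. The structural subunits had few. Tnnt2 (troponin T) had 2, Tnnc1 (troponin C) 1 and Tpm1 (tropomyosin) 1. Actc1 (cardiac actin), Tnni3 (troponin I), Tnni1, Tpm2, Tpm3 and Tpm4 had none, nor did the longest member, the skeletal muscle gene Neb, with 26582 nt of exon. The few sites of the subunits ranked high, with 152nd for Tpm1 and 242nd for Tnnt2. The longest exon measured 328 nt in Actc1, 224 nt in Tnni3 and 234 nt in Tnnt2, but 849 nt in Tpm1. Members without a site also included genes with long exons. The longest exon was 1293 nt in Tpm2, 1375 nt in Tpm3, 1401 nt in Tpm4 and 785 nt in Neb.

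Z-disc and myofibril genes had the highest density of the cardiac classes, 1.46 sites per kb, with a site in 31 of 34 members. Xirp2 and Xirp1, actin-binding repeat proteins of the intercalated disc and Z-disc region, had 40 and 33 sites. In Xirp2, exon 7 (9265 nt) held 31 of the 40, and in Xirp1, exon 2 (3394 nt) held 17 and the last exon 16. Synpo2 followed with 18 and Synm (synemin, an intermediate filament protein) with 15. Des (desmin) and Cryab (a small heat shock protein that protects desmin) had 1 each, at ranks 261 and 33058, and Actn2 (alpha-actinin) had 1 at rank 41104. Ankrd2, Pdlim7 and Trim54 had none, and their longest exons measured 235 to 366 nt.

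In the dystrophin complex and costamere, which tie the sarcomere to the membrane and matrix, 27 of 28 genes had a site, the highest share of the cardiac classes, and Dtna was the exception. That place rested on lower-ranked sites: with the upper 50% of the ranking the share was 64.3%, below that of the intercalated disc (82.6%) and of cardiac transcription factors (80.5%). The density was low, 0.653 per kb. Plec (plectin, a cytoskeletal linker) held 51 of the 194 sites and 41 of them lay in its last exon of 7412 nt. Dag1 (dystroglycan) had 25, of which 23 in its last exon, and Sptbn1 (beta-spectrin) 17. At the intercalated disc, where cardiomyocytes join, 21 of 23 genes had a site. Gja1 (connexin 43, the main gap junction protein of the ventricle) had 16, all in its last exon of 2882 nt. Dsp and Pkp4 had 14 each. Cdh2 and Ctnna3 had none, although the longest exon of Cdh2 measures 1477 nt.

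Calcium handling genes had a site in 32 of 40 members and 237 sites, at 0.686 per kb. Ryr2, the calcium release channel of the sarcoplasmic reticulum, had 23 sites, of which 22 could be placed among its 105 exons. The last exon (1510 nt) held 9 and exon 90 (1298 nt) held 7. Slc8a1, the sodium-calcium exchanger, had 21 and Jph2, which tethers the reticulum to the T-tubule, had 18. Of the DRACH motifs of Jph2, 30.6% held a site, compared with 3.45% in Ryr2. Pln, the small inhibitor of the calcium pump, had 11 sites at 3.99 per kb, and 5 of them were in the top 1%. Its target, Atp2a2, had 3. Cacna1d, Calm2, Casq1, Fkbp1a, Fkbp1b and Itpr1 were among the 8 members without a site.

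Sodium and potassium channels and pumps had 281 sites in 31 of 36 genes, at 1.37 per kb. Kcnj3, which encodes a subunit of the channel opened by acetylcholine, had 18. Only 1 site of the class was in the top 1%, compared with 22 in calcium handling genes. Fxyd1, Kcnip2, Scn10a and Scn2b were among the members without a site. Adrenergic and cAMP signalling genes had 254 sites in 29 of 33 members, led by the glycogen-targeting phosphatase subunit Ppp1r3a with 27, the muscarinic receptor gene Chrm2 with 26 and the anchoring protein Akap6 with 25. Adrb3, Gnas, Pde2a and Pde5a had none. Among natriuretic peptides and stress-responsive genes, Insr (insulin receptor) had 28, Igf1r 21 and Npr3, the clearance receptor for natriuretic peptides, 19. Nppa, the atrial natriuretic peptide gene, had no site and Nppb had 2, both in the 3′ UTR and best ranked 38077th. Mstn, Nrg1 and Spp1 had none.

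**Figure D2:**
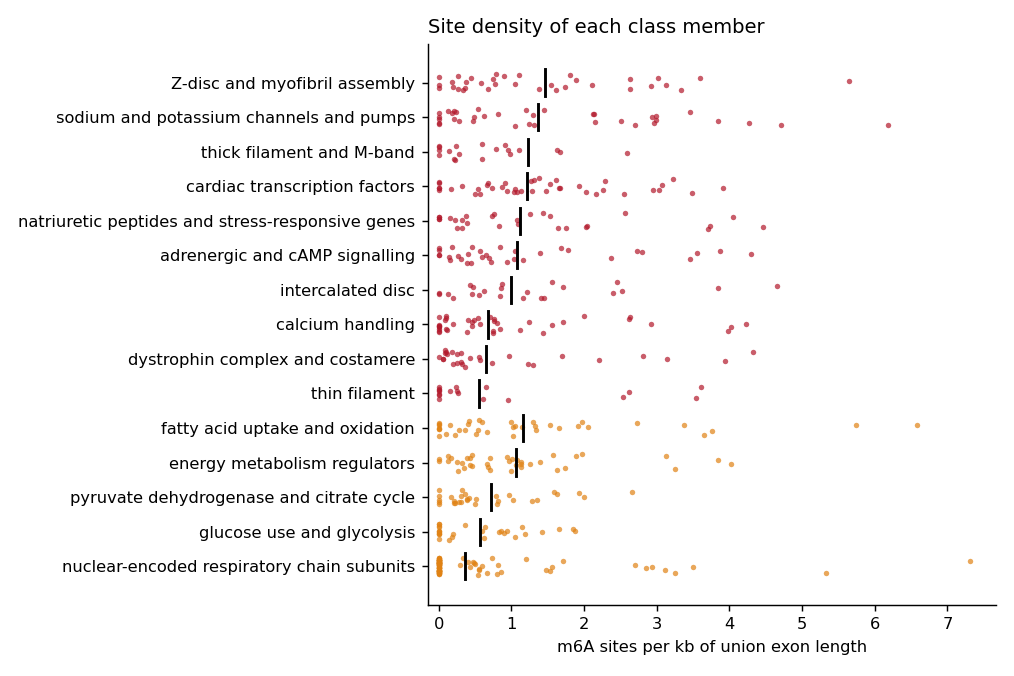
Sites per kb of union exon length for each member of the 10 cardiac classes (red) and 5 metabolic classes (orange), points spread vertically for legibility. Black bars give the summed sites over the summed length of the class, which run from 0.560 to 1.46 per kb in the cardiac classes and from 0.362 to 1.16 in the metabolic ones. Most classes hold members at 0 beside members above 3 per kb.

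Among the metabolic classes, the share of members with a site was highest in regulators and lowest in respiratory chain subunits. With the upper 50% of the ranking, regulators and fatty acid genes stood level at 78.9%. Regulators of energy metabolism had a site in 36 of 38 genes and 1.06 sites per kb. Rxra, the partner of many nuclear receptors, had 22, all in the 3′ UTR, Perm1 (a muscle regulator of mitochondrial genes) had 15, Thrb 14, and Ppargc1a and Ppargc1b, coactivators of mitochondrial biogenesis, 13 each. Ckm (muscle creatine kinase) and Mb (myoglobin) had none. Fatty acid genes had a site in 31 of 38, led by Plin4, a lipid droplet coat protein, with 38 sites, Acacb, which makes the malonyl-CoA that restrains fatty acid entry, with 19 and Ucp3 with 18. Acsl1 had 12, all in its last exon. Acadvl, Cpt1b, Dgat1, Eci1, Etfa and Etfb were among the 7 without a site.

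Pyruvate dehydrogenase and citrate cycle genes had a site in 26 of 31, led by regulators of pyruvate dehydrogenase: the kinase Pdk1 with 15 and the phosphatase Pdp1 with 12, followed by Pdpr with 8. Fh1, Idh3b, Mpc1, Mpc2 and Sdhb had none. Genes of glucose use and glycolysis had a site in 18 of 29, led by Pfkfb2 with 12, Hk2 (hexokinase) with 11 and Pygb (glycogen phosphorylase) with 9, while Aldoa, Eno3, Gapdh, Gbe1, Ldha and Pfkfb1 were among the 11 without one. The insulin-responsive transporter Slc2a4 had 4, best ranked 236th. Nuclear-encoded respiratory chain genes had a site in 29 of 93 (31.2%, interval 22.7 to 41.2%), so that the share of all protein-coding genes lay within the interval. Their median exon length was 1550 nt and the median of their longest exons 302 nt. The assembly factors Ndufaf1, Ndufaf4 and Uqcc3 led with 8, 6 and 6 sites. The subunits Atp5a1, Cox4i1, Cox5a, Ndufs1 and Uqcrc1 were among the 64 without one, yet 6 members of the class held a site in the top 1%.

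Classes outside cardiac and metabolic function were read in the same way. Cytosolic ribosomal protein genes had a site in 16 of 83 and 19 sites in all, with at most 2 in 1 gene (Rpl10a, Rpl41 and Rpl7l1). Their share with a site was 19.3%, and 9.64% with the upper 50% of the ranking. For all protein-coding genes these shares were 37.4% and 26.9%. The 13 mitochondrially encoded protein genes had none. The m6A machinery itself carried 141 sites, 109 of them coding, in 15 of 21 genes (71.4%). Rbm15 and Virma, parts of the writer complex, had 21 and 18, and the reader gene Ythdf3 had 15. Mettl3 had none. Among long noncoding RNAs, Xist had 30, Tug1 27, Neat1 17 and Malat1 6. All 6 sites assigned to Malat1 alone were in the top 1% of the ranking, which 13 sites of this class reached. A further site at the highest value (chr19:5799068, minus strand) lies in Malat1 but is shared with another gene and was not counted. Of the 20 members of the class, 13 had no site, Kcnq1ot1 included.

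Whether a class member had a site varied with the length of its longest exon, which the assignment of sites did not use. The longest exon is that of the longest coding transcript, whereas sites were counted over all exons of a gene. The 2 do not always match. All 10 sites of Nrf1 and 11 of the 12 sites of Pfkfb2 lay outside that transcript, whose longest exon measures 280 nt and 208 nt. Among the 529 cardiac and metabolic genes, 48.4% had a site where the longest exon was under 400 nt (61 of 126), 63.0% from 400 to 799 nt, 82.3% from 800 to 1599 nt and 93.6% from 1600 to 3199 nt (102 of 109). At 3200 nt or more the share was 93.1% (67 of 72). The median longest exon was 1380 nt in the 397 genes with a site and 413 nt in the 132 without. The genes with a site also had more DRACH motifs, a median of 95 compared with 41, so that length and the number of motifs were not separated here. In all protein-coding genes the share rose over the same steps from 15.2% to 31.1%, 38.1%, 47.7% and 50.7%.

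Counting per DRACH motif takes the number of motifs into account. In protein-coding genes with a site, internal exons of 101 to 150 nt held 75963 motifs, of which 283 carried a site (0.373%, interval 0.332 to 0.418%). In internal exons of 201 to 400 nt the share was 2.14%, and in those of 401 to 1000 nt it was 13.9% (3393 of 24463). Last exons did not show so steep a step. They reached 11.1% at 201 to 400 nt and 14.5% at 401 to 1000 nt and stood at 7.33% above 1000 nt.

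The same motifs were then sorted by their distance from the nearest exon junction. In internal exons, 0.483% of motifs within 24 nt of a junction held a site and 0.568% of those at 25 to 49 nt. The share was 1.66% at 50 to 99 nt, 8.58% at 100 to 149 nt, 15.2% at 150 to 199 nt and 18.4% at 200 to 399 nt. In last exons, where only the upstream junction counts, the share was 2.69% within 24 nt, 17.5% at 100 to 149 nt and 20.9% at 150 to 199 nt. Beyond 400 nt it was 13.1% in internal and 5.77% in last exons. Internal exons lay below last exons at every distance under 400 nt. The 2 kinds of exon also differ in transcript region, an input of the classifier, so this difference may be partly built into the list. The part that read mapping across junctions has in these shares was not tested.

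**Figure D3:**
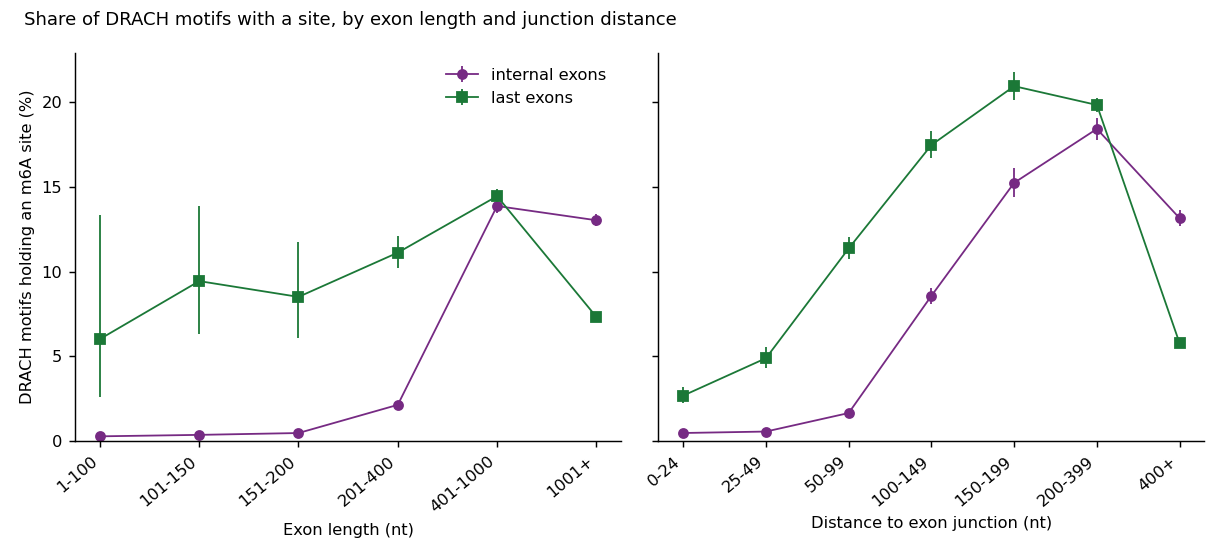
Share of DRACH motifs that hold an m6A site (y axis, %, Wilson 95% intervals), by exon length (left) and by distance to the exon junction (right), in internal (purple) and last (green) exons of protein-coding genes with a site. In internal exons the share is below 0.5% up to 200 nt of exon length and 13.9% at 401 to 1000 nt, and it rises from 0.483% to 18.4% with distance from the junction.

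Over all protein-coding genes, 12.2% of the 25% with the shortest exon length (up to 1964 nt) and 59.9% of the 25% with the longest (from 5806 nt) had a site. Density was counted only over genes with a site, where few sites in a short gene already give a high value. On that count it was 1.96 sites per kb in the shortest 25% and 0.706 in the longest 25%, so it does not compare all genes. Across the 8211 genes, Spearman's rho between the number of sites and exon length was 0.265. This is a description over genes of 1 library, and both measures grow with the annotation of a gene. The median density was 0.770 sites per kb (quartiles 0.374 and 1.47). Of the 8512 genes with a site, 1851 had a single one, 1268 had at least 10, 167 had at least 20 and 4 had at least 50. The 1657 genes with the most sites held 50% of all sites assigned to genes.

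After Ttn, the genes with the most sites were Ahnak with 84, Kmt2d with 57, Plec with 51, Macf1 with 48, and Spen and Xirp2 with 40 each. Ahnak, a giant scaffold protein, had all of its sites in its last exon of 17498 nt. Kmt2d encodes a histone methyltransferase that is needed for heart development, and exons 40 and 35 held 16 and 15 of its sites. Alpk2 (an alpha-kinase) and Pdzd2 had 39 each, Plin4 38, Ankrd50 and Dst 37 each, Tacc2 36, and Son and Tnrc6c 35 each. Macf1 and Dst are cytoskeletal linkers of the same family as plectin. With 195 sites, Ttn had 1.67 per kb and Dst had 0.899, whereas Plin4 had 6.58.

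Among the 3390 protein-coding genes with at least 5 sites and 1 kb of exon, Mrm2, a methyltransferase for mitochondrial ribosomal RNA, led with 12 sites in 1443 nt (8.32 per kb), all in its last exon. Others among the 10 densest were Tbcc (7.73), Tent5b (7.43), Rab20 (7.18), AI837181 (7.13), Sertad1 (6.70), Depp1 (6.63), Plin4 (6.58) and Ier2 (6.57). Plin4, with 5777 nt of exon, was longer than the median protein-coding gene with a site (4960 nt), and the other genes named here were shorter. Plin4 was the only gene among the 15 with the most sites and also among the 10 densest. In Tbcc, a tubulin folding cofactor, 40.9% of DRACH motifs held a site, and in AI837181 42.3%.

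**Figure D4:**
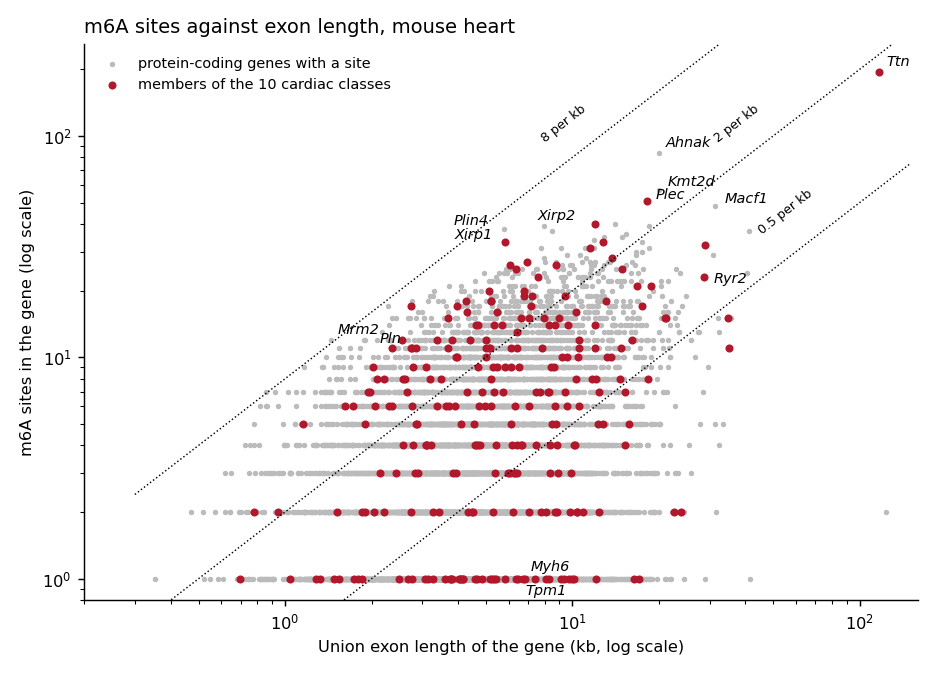
Number of m6A sites against union exon length (kb) for protein-coding genes with a site, both axes logarithmic. Red points are members of the 10 cardiac classes, grey points all other genes, and dotted lines mark 0.5, 2 and 8 sites per kb. Ttn stands at 195 sites, while Myh6 and Tpm1 hold 1 site each.

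The top 1% of the ranking held 465 sites, of which 434 were assigned to 233 genes. Protein-coding genes with such a site made up 1.03% of all protein-coding genes, whereas 45 of the 300 cardiac genes and 27 of the 229 metabolic genes had one. No source used here says that the ranking value is corrected for RNA level, and the part of RNA level in it was not tested. Cardiac genes held 5.02% of all assigned sites and 29.0% of those in the top 1% (126 sites, interval 25.0 to 33.5%), and Ttn held 30 of the 126. Behind Ttn came Ahnak with 11 and Tacc2 with 10, and further down Fem1a, Fndc5 (the precursor of irisin), Malat1, Neat1 and Nfe2l1 with 6 each. The share of placed sites in cardiac genes was 14.4% in the top 10% of the ranking, 7.12% in the next 10% and 3.00% in the lowest 10%.

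Of the 40984 sites that could be placed in the longest coding transcript of their gene, 51.3% were coding, 46.8% lay in the 3′ UTR and 1.92% in the 5′ UTR. Within the top 1% these shares were 52.8%, 45.0% and 2.25%. The window from 100 nt before to 400 nt after the stop codon held 34.8% of placed sites, and last exons held 68.5%. The share in the 3′ UTR was 45.3% in the top 10% of the ranking and 56.4% in the lowest 10%. GGACT was the most frequent pentamer, with 9963 sites (21.5%), ahead of GAACT with 14.3%, AGACT with 12.9% and GGACA with 12.8%. Its share was 27.6% in the top 10% and 16.6% in the lowest 10%, and 34.2% within the top 1%. DRACH as a whole stayed between 91.7% and 94.2% in all 10 steps of 10% of the ranking.

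**Figure D5:**
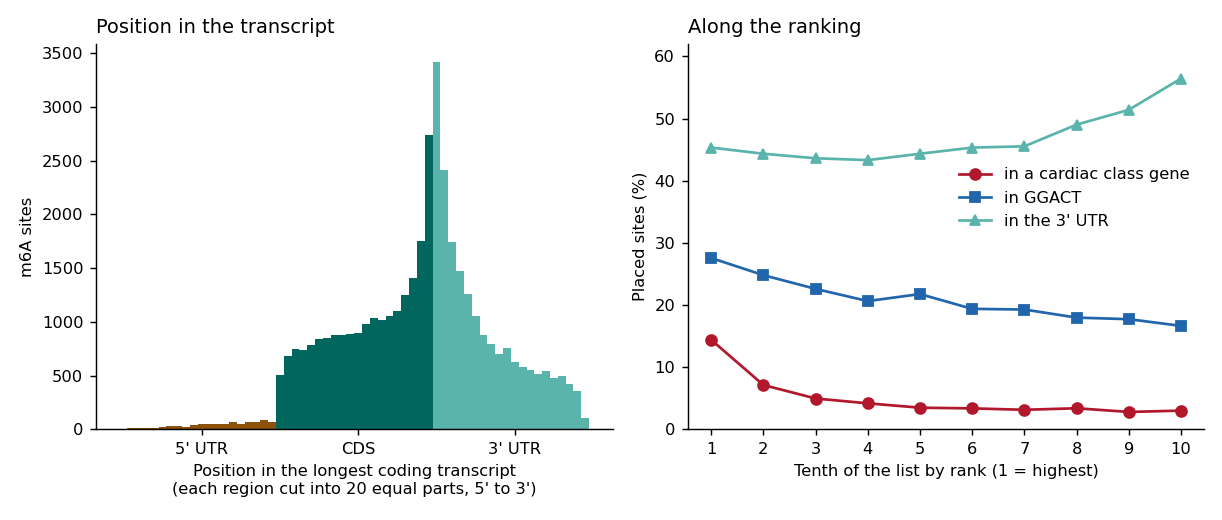
Left, m6A sites along the longest coding transcript, with each region divided into 20 equal parts. The count peaks at the first part of the 3′ UTR (3416 sites) and the last part of the coding sequence (2740). Right, share of placed sites (%) in cardiac class genes, in GGACT and in the 3′ UTR by steps of 10% of the ranking from highest to lowest, from 14.4% to 3.00%, from 27.6% to 16.6% and from 45.3% to 56.4%.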

How the data were processed

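Mouse heart poly(A)+ RNA (1 library, 1 µg, no replicate) was profiled by miCLIP2. According to the methods of the study and the submitters' processing notes, the authors mapped reads to GRCm38.p6 with STAR 2.7.3a and removed duplicates with UMI-tools 1.0.0. Reads with C-to-T changes were set aside, peaks were called with PureCLIP, and m6A was predicted with m6Aboost. The deposited list gives a position, a strand and a score. The scale of the score deposited by the authors is not stated, so it served for ranking only. The number of reads behind each site is unknown. The other site lists were only counted.

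Sites were placed on GENCODE M21, an earlier release than that of the authors, with Python 3.11.15, NumPy 2.4.6, pandas 2.3.3 and SciPy 1.17.1. Figures were drawn with Matplotlib 3.10.9. A site shared by exons of more than 1 gene entered no count per gene. Density is the number of sites per kb of the union of a gene's exons. Regions and exons refer to the longest coding transcript. Sequences around sites were read from the genome, so motifs within 2 nt of a junction (46 placed sites) may differ in the mRNA. The placing functions were checked on simulated data. Shares have Wilson 95% intervals.

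Gene classes were written by hand, 26 in all, and some genes are in more than 1. Named genes are the 15 with the most sites, the 10 densest with at least 5 sites and 1 kb, those of the 61 tied top sites in place of a top 20, the 3 leading members of each class, up to 6 members without a site, and the longest member of a class where it had none. Other class members were named after their values were seen. Some genes that meet these rules are not reported here. The members and lists were chosen with earlier results of these data known. Alternatives counted sites in several genes for each gene, kept the upper 50% of sites by rank or DRACH sites only, merged sites at most 10 nt apart, or changed region, length, motif and count rules.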

Additional observations from a re-analysis of the deposited data

How the results depend on the processing

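With 1 library, these values have no replicate error. Class shares stayed within their intervals in all 26 classes when sites of several genes were counted for each, when only DRACH sites were kept, and when sites at most 10 nt apart were merged. Keeping the upper 50% of the ranking took 8 classes below their intervals: dystrophin complex and costamere (64.3%), natriuretic peptides and stress-responsive genes (60.7%), pyruvate dehydrogenase and citrate cycle (64.5%), energy metabolism regulators (78.9%), smooth muscle and pericyte (64.7%), immune cells (33.3%), skeletal muscle (0%) and cytosolic ribosomal proteins (9.64%). It also lowered the share of protein-coding genes with a site to 26.9%, the 3′ UTR share to 44.2% and the share of cardiac genes with a site to 72.0%. The median density was then 0.522 per kb, the cardiac density 0.703 per kb, and 42 genes had at least 20 sites. Shares and counts of genes with sites can only fall when sites are removed. The top 1% of this shorter list is a smaller set of sites, and it lay in 121 genes. Counting sites of several genes for each gave 38.3% of protein-coding genes, and asking for 1 kb of exon gave 40.6%. Regions from any coding transcript put 48.2% of sites in the 3′ UTR. The median density was 0.729 per kb with DRACH sites only, 0.745 with merged sites, 1.13 in the longest coding transcript and 3.91 per 100 DRACH motifs. The cardiac density was 0.932 per kb with DRACH sites only, 1.43 in the longest coding transcript and 5.04 per 100 DRACH motifs. At least 10 sites were found in 1268 genes, and the top 5% lay in 1012 genes. No paired analysis was possible because there is a single library.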

Other observations

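A further 1724 sites lay outside the exons of any gene on their strand: 738 in introns, 621 outside genes, 239 opposite an intron and 126 opposite an exon. Some formed groups with gaps of at most 1000 nt next to heart genes. A group of 16 began 749 nt downstream of Nt5c1a (chr4:123217024-123220316), which has 2 sites in its own exons, and a group of 10 began 93 nt downstream of Adprhl1 (chr8:13218990-13221570). A group of 9 lay 3565 nt upstream of Actc1 (chr2:114057113-114058584), and 3 of its sites were at the highest value of the ranking, whereas Actc1 itself had none. Whether these groups belong to transcripts missing from the annotation was not tested. The whole list put 57.6% of sites within 100 nt of another site and 7.35% within 10 nt.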
